A study of Mus musculus with 6 samples.

Results

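The genes described here build, move along or bind microtubules in the axon. They are the alpha, beta and gamma tubulins, the kinesin heavy chains named Kif, the kinesin light chains Klc1 to Klc4, the cytoplasmic dynein chains named Dync and Dynl, the dynactin subunits Dctn1 to Dctn6, the EML proteins Eml1 to Eml6, and the microtubule-associated proteins Map1a, Map1b, Map2 and Mapt. They were matched by symbol, under a rule set with earlier results of these data known. Of the 31032 distinct names in the table, 90 belonged to them. The 90 names had 92 of the 31469 rows, since Eml1 and Dynlt1c had 2 rows each. For these 2 genes the row with the higher mean over the 6 libraries was used. In wild-type libraries that row was the lower of the 2, so its knockout values decided the choice. The wild-type means of the used and the other row were 11.1 and 18.7 TPM for Eml1 and 7.80 and 10.6 TPM for Dynlt1c. The RNA came from lumbar 4 dorsal root ganglia of mice, from the neurons that contain parvalbumin, and the 6 libraries were 3 labelled wild-type and 3 in which Dicer had been deleted under control of the parvalbumin gene (pvalb driven dicer knockout). Dicer cuts microRNA precursors into mature microRNAs, and the comparison asks what its loss does to the messenger RNAs of these neurons. The mice of both groups were C57BL/6 at postnatal day 21. A parvalbumin-driven Cre acts in any cell that has expressed parvalbumin. The labels do not say which alleles the wild-type animals carried, nor whether each library came from its own animal, so p-values measure the spread between these samples, which may be technical.

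Microtubules are hollow tubes of alpha and beta tubulin pairs, and gamma tubulin starts new ones. In an axon, kinesins carry vesicles and organelles outward to the terminals, and cytoplasmic dynein with its cofactor dynactin carries cargo back to the cell body. Proprioceptive neurons send one branch to muscle and the other into the spinal cord, so their cell bodies supply very long axons.

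Values were deposited as TPM, in which estimated read counts are divided by transcript length and each library is scaled to 1000000. Levels of different genes can therefore be set side by side, but the sequencing depth is not kept and is unknown. The number of rows at 1 TPM or more ran from 13237 to 13960 per library. The test was limma on log2(TPM + 1) over the 13787 rows whose mean reached 1 TPM, with adjusted p at most 0.05 taken as a call. Log2 differences below are knockout minus wild type on that scale and understate changes of low genes. Dicer1 itself was at 36.7, 26.0 and 48.7 TPM in wild-type and at 24.0, 20.8 and 21.8 TPM in knockout libraries (log2 difference -0.68, SE 0.22, limma adjusted p = 0.104). Its groups did not overlap, but reads from exons that were not deleted also count toward this value. Of 6 listed proprioceptor markers found, Pvalb, Etv1, Spp1 and Runx3 were called lower, and all 6 were present in every library. Satellite glia markers were present in every library too and summed to 2129 to 3222 TPM in wild-type and 1830 to 2266 TPM in knockout libraries. Of the 12, 2 (Fabp7 and Gja1) were called lower. S100b, at 1273 ± 38.3 and 1266 ± 75.8 TPM, was the largest part of these sums. Fabp7 was at 663 ± 200 and 214 ± 127 TPM. Only Glul had a positive difference, at 149 ± 48.4 and 226 ± 16.8 TPM. Myelinating Schwann cell markers summed to 448 to 527 TPM and 1039 to 1391 TPM, nearly all of it Pmp22, the 1 of 3 tested that was called higher. Mbp, of the same list, was at 17.9, 10.8 and 13.7 TPM in wild-type and 6.86, 7.85 and 5.6 TPM in knockout libraries, with no overlap (log2 difference -0.94, limma adjusted p = 0.0568). Egr2, Prx and Mag were at 0.61 TPM or below in each library. The 8 pan-neuronal markers summed to 54615 to 67472 TPM in wild-type and 50633 to 52494 TPM in knockout libraries, with no overlap. Of these 8, Rbfox3 was called higher and 0 lower, and 6 of the other 7 had negative differences, the largest in size being -0.49 for Nefm (limma adjusted p = 0.132). The part of these shifts in the results was tested for the satellite glia level alone, as a covariate. That level was the mean of log2(TPM + 1) over satellite glia markers, not their summed TPM. Replicate 3 of each group had Ddx3y at 33.3 and 32.7 TPM and Xist at 0.06 TPM or 0, the reverse of the other 4 libraries, so both sexes were present in each group.

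Transcripts of these genes were abundant. Together the 90 genes held 3.93% of the table in wild-type and 3.59% in knockout libraries (means of 3). The highest was Map1b, which encodes a microtubule-associated protein of axons, at 8313, 8484 and 8941 TPM in wild-type and 8207, 7735 and 7610 TPM in knockout libraries. Tuba1b, an alpha tubulin, followed at 8380 ± 1024 and 6930 ± 699 TPM (SD, n = 3 each), and its neighbour Tuba1a was at 4454 ± 699 and 4038 ± 470 TPM. Map1b and Tuba1b did not differ beyond their spread in wild-type libraries. Of the 90 genes, 72 reached the mean of 1 TPM and were tested. The other 18 included 6 of 11 mitotic kinesins.

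**Figure D1:**
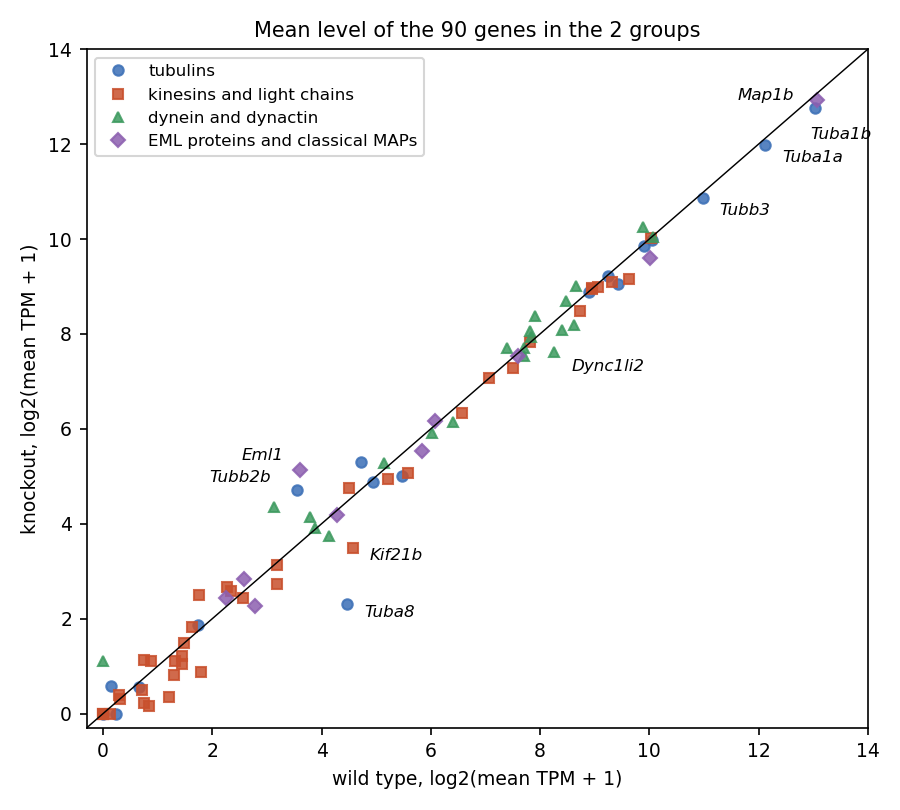
Mean level of each of the 90 genes in wild-type (x axis) and knockout libraries (y axis), both as log2 of the mean TPM plus 1, with the line of equal levels. Most points lie on the line, while Eml1 and Tubb2b lie above it and Tuba8 and Kif21b below it.

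Most tested genes did not pass the test. Eml1 rose, Tuba8 and Dync1li2 fell, and 69 were not called, so that 3 of 72 (4.17%) were called against 5.03% of all tested rows. By direction, 1.86% of all tested rows were called higher and 3.17% lower. The groups did not overlap for 21 of 72 genes (29.2%) against 28.9% of all rows, and 18 of 72 had an unadjusted p under 0.05 (25%) against 23.8%. The median log2 difference was -0.05 over the 72 genes and -0.05 over all tested rows. A log2 difference of at least 1 in size was seen for 6 of 72 genes (8.33%) against 6.46% of all rows. These shares lay near the background, so what follows concerns single genes. In the table as a whole, 256 rows were called higher and 437 lower, and after median-of-ratios rescaling 375 and 385. Among the 72 genes that rescaling gave 2 higher and 2 lower.

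**Figure D2:**
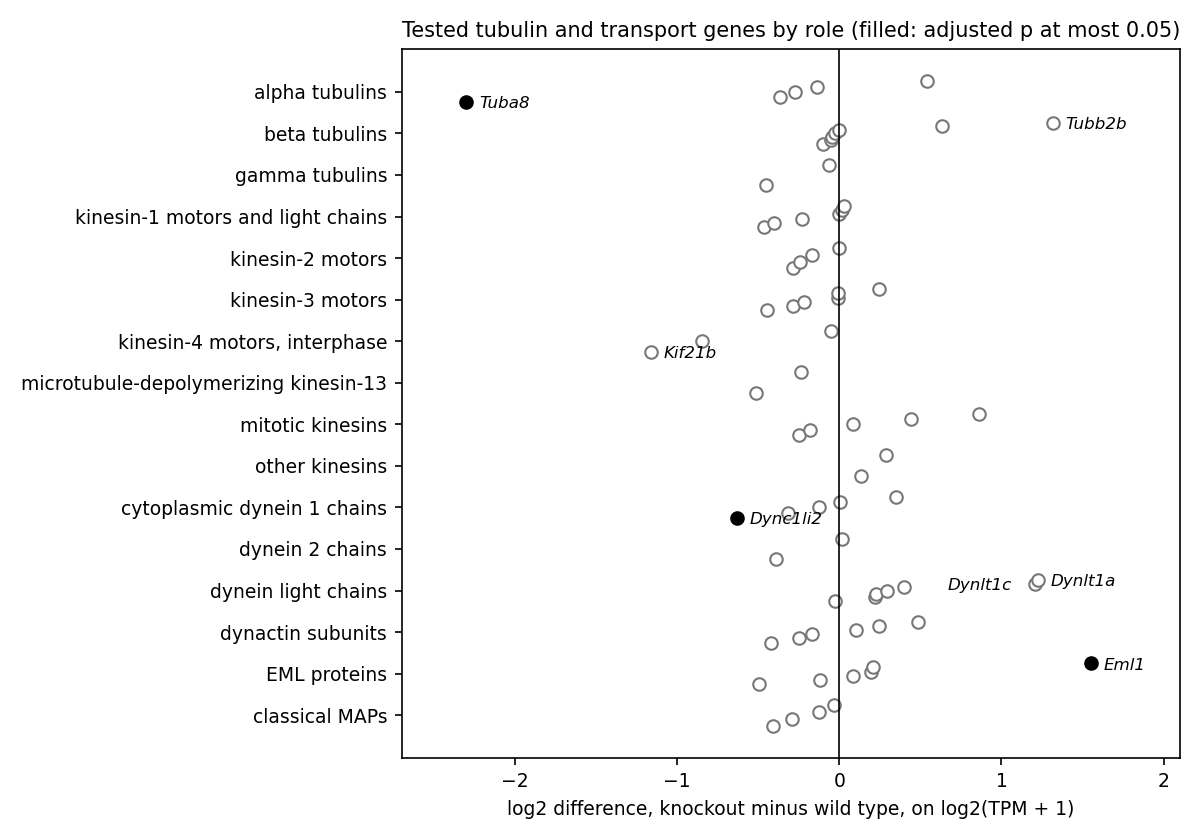
Log2 difference, knockout minus wild type, of each of the 72 tested genes, 1 row of points per role; filled points have an adjusted p of at most 0.05. The filled points are Tuba8 at -2.30, Dync1li2 at -0.63 and Eml1 at 1.55, and most open points lie within 0.5 of 0.

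Beta tubulins kept their major isotypes, and none was called. The groups did not overlap for 2 of the 7 tested, both minor isotypes, beside 28.9% of all tested rows. Tubb3, the neuron-specific beta tubulin, was at 1652, 2201 and 2189 TPM in wild-type and 1768, 1786 and 2044 TPM in knockout libraries (log2 difference -0.10, limma adjusted p = 0.704). It made up 39.1% ± 1.74 of beta tubulin TPM in wild-type and 37.9% ± 2.82 in knockout libraries (SD, n = 3 each). Tubb4b and Tubb4a came next, at 20.6% ± 1.06 and 18.6% ± 0.93 in wild-type and 20.5% ± 0.64 and 18.7% ± 1.6 in knockout libraries, and the values of both groups overlapped. Tubb2b, an isotype typical of developing neurons, was at 13.2, 4.18 and 14.7 TPM in wild-type and 26.2, 22.9 and 26.4 TPM in knockout libraries. Every knockout library lay above every wild-type library, but the difference missed the threshold (log2 difference 1.32, SE 0.38, limma adjusted p = 0.0792). It passed when the model included the mean log2 level of satellite glia markers (1.92, adjusted p = 0.0316). Tubb2b remained a trace of the pool in both groups, with 0.213% ± 0.120 and 0.510% ± 0.00846 of beta tubulin TPM. Tubb6, singled out after its values were seen, also had groups that did not overlap (25.4 ± 7.53 and 38.7 ± 2.05 TPM, log2 difference 0.63, limma adjusted p = 0.125). In all, 0 of 7 tested beta tubulins were called by limma, 2 had an unadjusted p under 0.05, both higher, and the median was -0.03.

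Tuba8 was the one alpha tubulin called. Tuba8, a divergent isotype known from muscle, testis and brain, was at 25.1, 24.1 and 14.3 TPM in wild-type and at 6.83, 1.23 and 3.8 TPM in knockout libraries. The lowest wild-type library had over 2 times the level of the highest knockout library. The mean fell from 21.2 ± 6.00 to 3.95 ± 2.80 TPM (SD, n = 3 each; log2 fold change -2.30, SE 0.43, limma adjusted p = 0.0222). In bulk samples, fewer cells of a type and less RNA per cell cannot be told apart. The call was lost without wild-type replicate 1, 2 or 3 or knockout replicate 3 (adjusted p = 0.0561, 0.0778, 0.0674 and 0.0571). It was also lost without the filter on low values (0.249) and without the intensity trend (0.0733). The same held when the model included the mean log2 level of satellite glia markers (-2.26, adjusted p = 0.085). Replicates 1 and 2 alone lost the call too (-2.62, adjusted p = 0.127). Tuba8 (chromosome 6, 121210696 to 121226854, GRCm38) made up 0.161% ± 0.0614 of alpha tubulin TPM in wild-type and 0.0340% ± 0.0247 in knockout libraries.

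The bulk of the alpha tubulin pool was shared by Tuba1b, Tuba1a and Tuba4a. Tuba1b held 62.0% ± 1.12 and 60.3% ± 1.22 of alpha tubulin TPM in wild-type and knockout libraries, Tuba1a 32.8% ± 0.96 and 35.1% ± 1.02, and Tuba4a 5.04% ± 0.25 and 4.59% ± 0.22. Tuba4a, an isotype without an encoded final tyrosine, was at 543, 752 and 763 TPM in wild-type and 546, 470 and 566 TPM in knockout libraries (log2 difference -0.37, limma adjusted p = 0.182). Its groups overlapped, and without wild-type replicate 1, its lowest wild-type value, it was called (-0.53, adjusted p = 0.0471). In the other 16 of 17 alternatives Tuba4a was not called. Summed alpha tubulin was 13544 ± 1833 TPM in wild-type and 11503 ± 1190 TPM in knockout libraries, with overlapping values. Of 5 tested alpha tubulins 1 was called lower, 0 higher, and the median was -0.27. The gamma tubulins Tubg1 and Tubg2, which nucleate microtubules, were at 43.3 ± 10.98 and 29.9 ± 3.81 TPM in wild-type and 30.9 ± 5.25 and 28.7 ± 3.85 TPM in knockout libraries (limma adjusted p = 0.219 and 0.854).

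How far these isotypes can be told apart by reads depends on their sequence, and the coding ends of 3 beta tubulins show it. The last 48 coding bases before the stop codon, which encode the tail that projects from the microtubule surface and differs most between isotypes, are given below from GENCODE transcripts on GRCm38. Capitals mark bases that differ from Tubb2a.
Tubb2a (chr13:34074471-34074518, minus strand): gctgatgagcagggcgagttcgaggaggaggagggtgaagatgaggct
Tubb2b (chr13:34127474-34127521, minus strand): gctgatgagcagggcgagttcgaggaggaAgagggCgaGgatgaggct
Tubb3 (chr8:123421632-123421679, plus strand): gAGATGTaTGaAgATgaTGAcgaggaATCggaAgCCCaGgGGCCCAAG

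Tubb2b differed from Tubb2a at 3 of these 48 bases and Tubb3 at 30. Over whole transcripts, 45.6% of the 50-base windows of Tubb2a also occurred in Tubb2b, and 33.4% of those of Tubb2b in Tubb2a. For Tuba1a and Tuba1b, 72.9% and 73.8% of windows occurred in another gene, and for Tubb4b 50.9%, most of them in Tubb4b-ps1. For Tuba8 the share was 0.18%, and for Tubb3, Tubb6, Eml1, Kif21b and Dync1li2 it was 0. The split between Tuba1a and Tuba1b, the level of Tubb4b, and the low Tubb2b values beside Tubb2a at 607 ± 91.6 and 598 ± 115 TPM, therefore rest in part on how reads that match more than 1 gene were divided, and are uncertain.

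**Figure D3:**
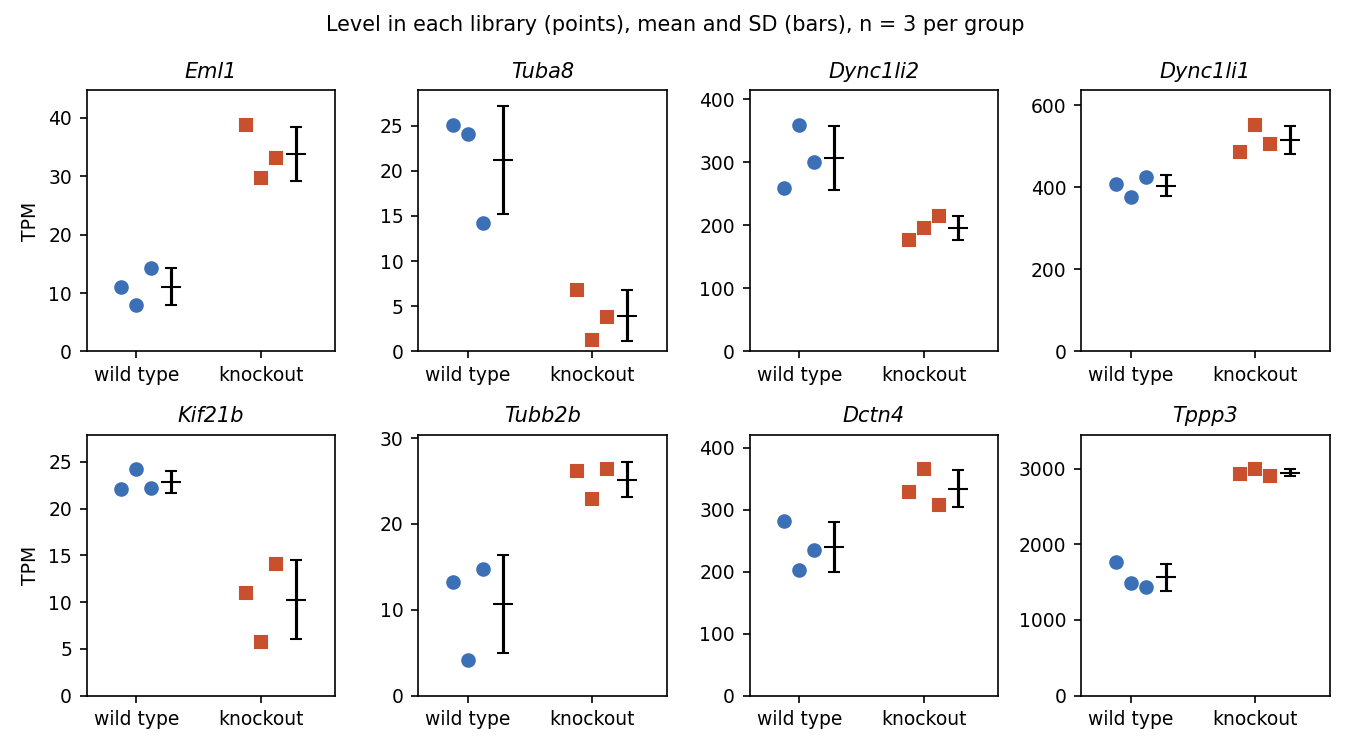
TPM of 8 genes in each library (points, 3 wild type and 3 knockout), with the mean and SD beside them; each axis starts at 0. The 2 groups do not overlap for any of these 8 genes chosen for display, nor for 28.9% of all tested rows. Values of Eml1, Dync1li1, Tubb2b, Dctn4 and Tppp3 are higher and those of Tuba8, Dync1li2 and Kif21b lower in knockout libraries. Only Eml1, Tppp3, Tuba8 and Dync1li2 were called.

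Outward motors of the kinesin-1 class kept their heavy chains. Kif5a and Kif5c, the neuronal heavy chains, were at 493 ± 26.3 and 494 ± 41.9 TPM in wild-type and 491 ± 28.4 and 503 ± 7.49 TPM in knockout libraries (log2 differences 0.00 and 0.03, limma adjusted p = 0.986 and 0.895). Klc1, the light chain that links the motor to many cargoes, was at 627, 913 and 841 TPM in wild-type and 550, 537 and 621 TPM in knockout libraries. The highest knockout value of Klc1 was under the lowest wild-type value, by a narrow margin to wild-type replicate 1, and the difference missed the threshold (-0.46, SE 0.15, limma adjusted p = 0.103). Without wild-type replicate 1, its lowest wild-type value, it was called (-0.62, adjusted p = 0.031). In the other 16 of 17 alternatives Klc1 was not called. Klc2, singled out after its values were seen, was at 93.7 ± 0.80 and 80.0 ± 6.51 TPM with no overlap (-0.23, limma adjusted p = 0.259). The median of the 6 tested members of this class was -0.12, and 0 were called by limma, with 1 at an unadjusted p under 0.05.

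Other cargo-carrying kinesins showed small differences. Kif3a, a subunit of kinesin-2, was at 418, 410 and 447 TPM in wild-type and 379, 343 and 356 TPM in knockout libraries, with no overlap (-0.24, SE 0.10, limma adjusted p = 0.178), while Kif3c was at 133 ± 6.42 and 133 ± 3.69 TPM and Kif3b at 36.3 ± 4.08 and 29.7 ± 4.74 TPM. Kif1b, a kinesin-3 that carries synaptic vesicle precursors and mitochondria, was the most abundant kinesin at 1040 ± 59.7 and 1032 ± 21.03 TPM. Kif1a, its relative that carries synaptic vesicle precursors and dense core vesicles, was at 636 ± 31.1 and 547 ± 40.9 TPM, with no overlap (-0.22, limma adjusted p = 0.242). Kif16b, an endosome motor, was at 21.5 ± 3.38 and 25.9 ± 6.00 TPM. None of the 4 kinesin-2 and 6 kinesin-3 genes was called by limma, and 1 and 0 had an unadjusted p under 0.05. Their medians were -0.21 and -0.11.

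Within the kinesin-4 class the 2 related motors Kif21a and Kif21b differed in how they stood between groups. Kif21b, which limits microtubule growth and carries membrane receptors in neurons, was at 22.1, 24.3 and 22.2 TPM in wild-type and 10.96, 5.71 and 14.1 TPM in knockout libraries. All knockout libraries lay below all wild-type libraries, and the log2 difference of -1.16 (SE 0.28) fell just short of the threshold (limma adjusted p = 0.0509). The adjusted p lay between 0.0403 and 0.312 over the alternatives and was under 0.05 in 6 of 17. Kif21a, which limits microtubule growth at the cell edge, was at 534 ± 92.1 and 509 ± 21.3 TPM (-0.05, limma adjusted p = 0.844). The difference between the 2 genes was not itself tested. Kif27, the third of this class that was tested, was near the filter, at 2.48 ± 1.51 and 0.83 ± 0.27 TPM (-0.85, limma adjusted p = 0.239).

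Kinesins that depolymerize microtubules or act in dividing cells were scarcer or low. Kif2a, a kinesin-13 that trims microtubule ends, was at 173, 187 and 184 TPM in wild-type and 145, 154 and 163 TPM in knockout libraries (-0.23, SE 0.10, limma adjusted p = 0.207). Kif24, a kinesin-13 of the centriole, was at 41.7, 43.6 and 56.2 TPM and at 31.2, 37.0 and 29.8 TPM (-0.51, SE 0.16, limma adjusted p = 0.0982). Neither gene had a knockout value as high as its lowest wild-type value. Of 11 mitotic kinesins 5 were tested and 0 called by limma, with 0 at an unadjusted p under 0.05, and all 11 together summed to 14.4 ± 6.36 TPM in wild-type and 16.5 ± 2.84 TPM in knockout libraries. The highest of them were Kif11, at 3.84 ± 1.69 and 5.37 ± 0.70 TPM, Kif22, at 2.37 ± 1.55 and 4.68 ± 0.87 TPM, and Kif18a, at 1.78 ± 1.41 and 1.79 ± 0.87 TPM. Markers of dividing cells summed to 9.40 to 24.4 TPM in wild-type and 9.64 to 25.9 TPM in knockout libraries. The remaining tested kinesins, Kif26b and Kif9, were at 4.07 ± 1.55 and 2.08 ± 0.79 TPM in wild-type and 5.01 ± 0.55 and 2.54 ± 1.49 TPM in knockout libraries. Kif2b, Kif12, Kif26a and Klc3 were listed at 0 in every library.

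The inward motor showed opposite values of its 2 light intermediate chains. These chains, encoded by Dync1li1 and Dync1li2, join the dynein motor to its cargo adaptors, and a dynein complex holds one kind or the other. Dync1li2 was at 260, 360 and 300.2 TPM in wild-type and at 177, 196 and 215 TPM in knockout libraries, with no overlap. Its mean fell from 307 ± 50.4 to 196 ± 19.0 TPM (SD, n = 3 each; log2 fold change -0.63, SE 0.14, limma adjusted p = 0.0378; chromosome 8, 104417680 to 104443047, GRCm38). Dync1li1 was at 409, 376 and 427 TPM in wild-type and 487, 553 and 506 TPM in knockout libraries, also with no overlap, and its difference missed the threshold (0.35, SE 0.10, limma adjusted p = 0.0854).

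Dync1li1 plus Dync1li2 came to 711 ± 36.2 TPM in wild-type and 712 ± 42.9 TPM in knockout libraries, a difference smaller than the spread. The ratio of Dync1li1 to Dync1li2 was 1.58, 1.05 and 1.42 in wild-type and 2.75, 2.83 and 2.35 in knockout libraries, so the lowest knockout ratio lay above the highest wild-type ratio. The ratio was formed after the values were seen and is given without a test. The call of Dync1li2 was the least stable of the 3: it was kept without wild-type replicate 1 (adjusted p = 0.0308) and lost without any other single library (0.058 to 0.151). It was also lost after median-of-ratios rescaling (-0.56, adjusted p = 0.0584), without the filter (0.244) and without the intensity trend (0.125). The same held when the model included the mean log2 level of satellite glia markers (-0.69, adjusted p = 0.0996). Replicates 1 and 2 alone lost the call too (-0.71, adjusted p = 0.169).

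The other chains of cytoplasmic dynein 1 were not called. Dync1h1, the motor heavy chain, was at 276, 375 and 365 TPM in wild-type and 270, 248 and 291 TPM in knockout libraries (-0.32, limma adjusted p = 0.207), and the groups overlapped through wild-type replicate 1. The heavy and light intermediate chains of dynein 2, the motor of cilia, were less abundant than those of dynein 1, with Dync2h1 at 16.6 ± 2.81 and 12.4 ± 2.64 TPM and Dync2li1 at 13.8 ± 1.44 and 14 ± 1.75 TPM in wild-type and knockout libraries. Of the 5 tested dynein 1 chains 1 was called lower and 0 higher, with a median of -0.12.

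Among the dynein light chains and dynactin subunits none was called by limma, and of these 13 tested genes 3 were higher and 1 lower at an unadjusted p under 0.05. Dynlrb1, a roadblock light chain, and Dynlt3, a Tctex-type light chain, were the most abundant at 939 ± 205 and 1068 ± 24.6 TPM in wild-type and 1228 ± 201 and 1049 ± 10.1 TPM in knockout libraries. Dynll2, an LC8 light chain, was at 393, 334 and 338 TPM and at 400, 411 and 430 TPM, with no overlap (0.22, limma adjusted p = 0.24). The 7 tested light chains, 3 of them Dynlt1 genes, had a median of 0.29. In dynactin, Dctn4, a subunit of its pointed end, was at 282, 202 and 235 TPM in wild-type and 329, 366 and 307 TPM in knockout libraries (0.49, SE 0.14, limma adjusted p = 0.079). Without wild-type replicate 1, its highest wild-type value, it was called (0.61, adjusted p = 0.04). In the other 16 of 17 alternatives Dctn4 was not called. Dctn6, also of the pointed end, was at 225 ± 23.1 and 266 ± 14.7 TPM with no overlap, while Dctn3, of the shoulder, was at 394 ± 90.5 and 291 ± 41.2 TPM with overlap (limma adjusted p = 0.229 and 0.182). The 6 dynactin subunits had a median of -0.03.

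The Dynlt1 light chain genes lie as near copies on chromosome 17, and their rows traded places between libraries. Dynlt1c was at 10.6, 5.78 and 7.07 TPM in wild-type and 26.1, 19.8 and 12.8 TPM in knockout libraries in its higher row (1.21, SE 0.30, limma adjusted p = 0.0516). The adjusted p lay between 0.0332 and 0.309 over the alternatives and was under 0.05 in 7 of 17. Its second row and Dynlt1a were both listed at 0 in wild-type replicate 3, where Dynlt1b had its highest value of 53.2 TPM against 22.8 to 41.4 TPM in the other libraries. Of the 50-base windows of Dynlt1a, Dynlt1b and Dynlt1c, 59.4%, 83.2% and 93.7% occurred in another gene, so the split between these rows is uncertain. The 4 rows summed to 77.9, 59.4 and 60.2 TPM in wild-type and 90.2, 86.7 and 90.02 TPM in knockout libraries. As 1 feature, chosen after the data were seen, they gave a log2 difference of 0.44 (limma adjusted p = 0.0925). The log2 difference of 1.23 for Dynlt1a (limma adjusted p = 0.489) was -0.22 without wild-type replicate 3.

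**Figure D4:**
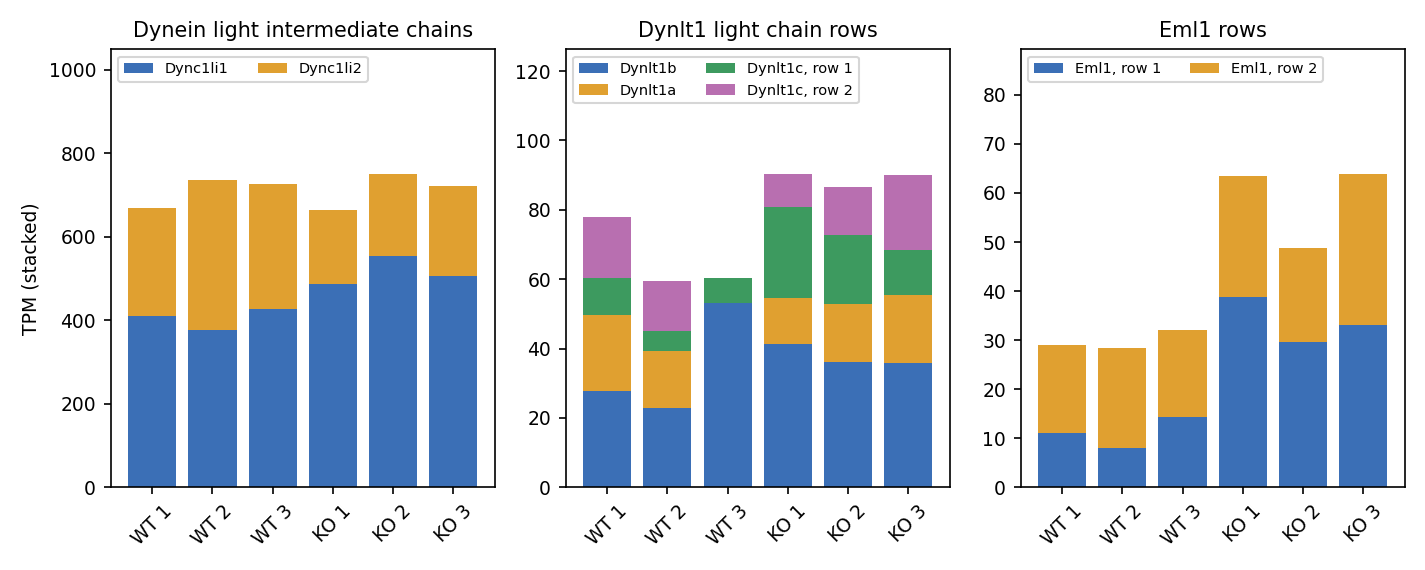
TPM per library, stacked, for the 2 dynein light intermediate chains (left), the 4 rows of Dynlt1a, Dynlt1b and Dynlt1c (middle) and the 2 rows of Eml1 (right), each axis starting at 0. The left sums lie between 665 and 749 TPM in both groups while the lower part grows in knockout libraries; in the middle, wild-type replicate 3 shows 2 rows only.

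Eml1 was the one gene called higher. EML proteins bind microtubules, and Eml1 is known for its part in spindle orientation of cortical progenitors. The higher row of Eml1 was at 11.02, 7.94 and 14.3 TPM in wild-type and at 38.9, 29.7 and 33.1 TPM in knockout libraries, and the lowest knockout value was over 2 times the highest wild-type value. The mean rose from 11.1 ± 3.20 to 33.9 ± 4.64 TPM (SD, n = 3 each; log2 fold change 1.55, SE 0.22, limma adjusted p = 0.00782; chromosome 12, 108370957 to 108539617, GRCm38). The second Eml1 row was at 18.7 ± 1.51 and 24.8 ± 5.81 TPM (0.37, limma adjusted p = 0.293), and the table does not say which transcripts each row holds. It was the higher row in wild-type libraries, so the called row was picked through its knockout values. Both rows together came to 28.9, 28.4 and 32.1 TPM in wild-type and 63.4, 48.8 and 63.8 TPM in knockout libraries (log2 fold change of the sum 0.95, limma adjusted p = 0.0116). The call was lost without knockout replicate 1 (1.45, adjusted p = 0.0638), without the filter (0.139) and with replicates 1 and 2 alone (1.75, adjusted p = 0.0794). It was kept when the model included the mean log2 level of satellite glia markers (1.85, adjusted p = 0.015). Of the 5 other EML genes 0 were called by limma and 0 had an unadjusted p under 0.05, with Eml2 at 66.6 ± 4.94 and 70.7 ± 7.83 TPM and Eml4 at 18.6 ± 1.48 and 17.2 ± 3.14 TPM.

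The 4 classical microtubule-associated proteins were not called by limma, and 1 had an unadjusted p under 0.05. Map1a, which stabilizes microtubules of mature neurons, was at 889, 1124 and 1072 TPM in wild-type and 829, 677 and 812 TPM in knockout libraries (-0.41, SE 0.13, limma adjusted p = 0.1). Map1b, given above, had a log2 difference of -0.13 (limma adjusted p = 0.539). Neither gene had a knockout value as high as its lowest wild-type value. Map2, the dendritic protein, was at 193 ± 48.6 and 186 ± 27.3 TPM (-0.04, and 0.04 after median-of-ratios rescaling). Mapt, which encodes tau and was singled out after its values were seen, was at 56.4 ± 8.48 and 45.6 ± 4.20 TPM (-0.29, limma adjusted p = 0.269). Their median was -0.21.

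Genes that fold, modify, cap, nucleate or load this machinery were counted from 4 lists, and 1 of 118 tested was called, against the 5.03% of all rows. Tppp3, a small protein that promotes tubulin polymerization, was at 1771, 1492 and 1431 TPM in wild-type and at 2932, 2997 and 2904 TPM in knockout libraries. Its mean rose from 1565 ± 181 to 2944 ± 47.6 TPM (SD, n = 3 each; log2 fold change 0.92, SE 0.12, limma adjusted p = 0.00454), and the call was kept whichever single library was left out. It was lost without the filter (0.197) and with replicates 1 and 2 alone (0.87, adjusted p = 0.106). The call came from 39 tested plus-end, stabilizing and severing proteins, whose median was 0.08. None of 30 motor adaptors and dynein regulators (median -0.12), 26 folding cofactors and tubulin-modifying enzymes (median -0.03) or 23 nucleation and minus-end proteins (median -0.09) was called by limma. At an unadjusted p under 0.05 these 3 lists had 2, 2 and 1 genes higher and 2, 3 and 2 lower, and the plus-end, stabilizing and severing list had 7 higher and 4 lower. Over the 4 lists that made 12 higher and 11 lower of 118, beside the 23.8% of all rows. Bicd1, Kifbp, Svbp and Camsap1 had no row under these names.

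Since Dicer makes microRNAs, the 3′ untranslated regions of these genes were searched for the 7 bases that pair with microRNA bases 2 to 8. The microRNAs whose matches lie in Eml1 and Tubb2b are shown from RefSeq (GRCm38.p6), with the seed in capitals.
miR-128-3p: uCACAGUGaaccggucucuuu
miR-30a-5p: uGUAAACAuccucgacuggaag
miR-29a-3p: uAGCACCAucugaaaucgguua
The matches are shown on the strand of the gene, with the 7 bases in capitals and 11 bases on either side, from GENCODE transcripts on GRCm38.
Eml1 with miR-128-3p (chr12:108538261-108538289, plus strand): ttccgcttggtCACTGTGatttctgtttt
Eml1 with miR-30a-5p (chr12:108539268-108539296, plus strand): attgaattgatTGTTTACactggggactg
Tubb2b with miR-29a-3p (chr13:34127331-34127359, minus strand): tgctgggtctcTGGTGCTcttcactgttg

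The motif CACTGTG occurred in the 3′ untranslated regions of 18 of 72 tested genes (25%) and of 23.3% of 11525 searched genes. TGTTTAC occurred in 13 of 72 (18.1%) against 17.2%, and TGGTGCT in 13 of 72 (18.1%) against 16.0%. For let-7a-5p, whose motif is CTACCTC, it was 5 of 72 (6.94%) against 10.7%. These regions differ in length between genes, only the given strand was searched, and a match is a description of the sequence. Tuba8, which fell, had no match to the 11 microRNAs searched, and Dync1li2 had 1 each to miR-9-5p, miR-182-5p and miR-181a-5p. The motifs of these 3 occurred in 13.9%, 13.9% and 18.1% of the 72 genes against 14.8%, 13.2% and 19.4% of searched genes. Among other genes with higher knockout values, no match was found for Tppp3, which was called, or for Dync1li1 or Tubb6. Dynlt1c had matches to miR-128-3p and Dctn4 to miR-181a-5p. Among genes with lower knockout values, Map1a had matches to miR-9-5p, miR-182-5p, miR-29a-3p and miR-181a-5p. Kif24 had matches to miR-96-5p and miR-182-5p, and Klc1 had none. Kif21b, in a region of 3907 bases, had 1 match each to let-7a-5p, miR-26a-5p, miR-29a-3p and miR-30a-5p.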

How the data were processed

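RNA from parvalbumin-positive neurons was extracted with the PicoPure kit, amplified to cDNA with an Ovation kit, sheared and ligated to adapters, per the labels' protocols. Amplification from small inputs adds noise, above all at low levels. The authors deposited TPM in a single table, 1 column per library. Tools named are cutadapt, Bowtie2 and RSEM 1.2.7, and the build is mm10, per the submitters' processing notes; no gene annotation is named. RSEM estimates how reads that match several transcripts are split, which leaves near-identical genes uncertain, and a 0 can be a failed estimate.

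Libraries were grouped by title. limma 3.58.1 in R 4.3.3 was fitted to log2(TPM + 1) for the 13787 rows whose mean over the 6 libraries was 1 TPM or more, with an intensity trend, genotype as the only term, two-sided tests and Benjamini-Hochberg adjustment over all tested rows. An exact permutation test of 3 against 3 cannot go below 0.1, so none is given. On simulated data for these 13787 rows, with normal noise at the fitted spread, changes were planted only in rows above about 5 TPM. The calling step recovered 69.3% of these 2-fold changes and 19.1% of these 1.5-fold changes. Recovery in lower rows was not simulated. Coordinates, coding ends and untranslated regions came from GENCODE vM21 (GRCm38, the assembly of mm10), and microRNAs from RefSeq; miR-124-3p had no entry. Coding ends of the alpha tubulins are not reported here. Of each gene's protein-coding transcripts, the one with the longest coding part served for coding ends and 50-base windows, and the longest 3′ untranslated region for motifs.

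The named genes are the called members, the 3 most abundant tested members of each role, tested members with a log2 difference of at least 1 in size, and called genes of the 4 further lists (up to 4 in each direction). Others are stated as singled out. The members, lists and alternatives were chosen with earlier results of these data known. Alternatives covered the pseudocount, filter, scaling, rows per name, model terms, library weights and libraries left out.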

Additional observations from a re-analysis of the deposited data

How the results depend on the processing

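Of 54 named log2 differences, 39 kept their sign under every alternative run for them, of 17 in all; Kif9, Kif11, Kif18a, Kif22, Kif26b and Kif27 had 16, since the filter at 5 TPM removes them. With no filter on low values 0 members were called in either direction and 7 rows higher and 12 lower over the table; without an intensity trend 1 member was called higher and 0 lower (57 and 168 rows), and with the satellite glia covariate 2 and 0 (79 and 113 rows). Replicates 1 and 2 alone gave 0 and 0 members (3 and 14 rows). A filter at 5 TPM, median-of-ratios rescaling, quantile normalization and library weights each gave 2 members higher. Leaving out 1 library gave 0 to 3 members higher and 0 to 3 lower, 33 to 329 rows higher and 91 to 461 lower. Leaving out wild-type replicate 1 raised the calls over the table, to 329 rows higher and 461 lower from 256 and 437. Without wild-type replicates 2 and 3 and knockout replicates 1, 2 and 3 the table gave 101, 48, 33, 71 and 148 rows higher and 153, 96, 91, 148 and 303 lower. Pathway genes called higher numbered 0 without the filter, 3 with the filter at 5 TPM, 4 after rescaling, 2 after quantile normalization, 0 with replicates 1 and 2 alone and 1 to 2 without 1 library; 0 to 1 were lower without 1 library. The cause of these shifts was not tested.

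The labels do not pair libraries of the same replicate number. Replicate 3 of both groups did share sex markers (Ddx3y present, Xist near 0) that differed from those of replicates 1 and 2. A replicate block therefore also takes up sex, and runs on replicates 1 and 2 alone leave replicate 3 with its sex out. Deviations of same-numbered libraries from the group means correlated at 0.05, 0.07 and 0.04. Wild-type replicate 3 correlated best with another number. With the replicate block 3 members were called higher (Eml1, Dynlt1c and Tubb2b, at 1.55, 1.21 and 1.32) and 2 lower, and 188 and 341 rows.

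Sign changes touched 15 differences, none of them called. After median-of-ratios rescaling, which moved the median of all rows from -0.052 to 0.018, the values were 0.050 for Dynlt3, 0.067 for Kif1b, 0.022 for Kif21a, 0.071 for Kif3c, 0.072 for Kif5a, 0.041 for Map2, 0.034 for Tubb4a, 0.023 for Tubb4b and 0.013 for Tubg2. Quantile normalization gave 0.032 for Kif3c, -0.0013 for Kif5c, 0.010 for Map2 and 0.011 for Tubg2. Library weights gave 0.0095 for Kif1b, 0.0032 for Kif21a, 0.0039 for Kif3c, 0.017 for Kif5a and 0.013 for Map2. The satellite glia covariate gave -0.045 for Dync2li1, -0.059 for Dynlt1a, 0.074 for Eml4, 0.0100 for Kif3c, 0.043 for Kif5a, 0.17 for Map2, 0.019 for Tubb4a and 0.048 for Tubb4b. Replicates 1 and 2 alone gave -0.11 for Dync2li1, -0.34 for Dynlt1a, 0.047 for Kif5a, -0.032 for Kif9, 0.17 for Map2, 0.11 for Tubb4a, 0.071 for Tubb4b and 0.044 for Tubg2. With 1 library left out, the ranges were -0.057 to 0.11 for Dync2li1, -0.22 to 2.05 for Dynlt1a, -0.22 to 0.029 for Eml4, -0.31 to 0.46 for Kif18a, -0.055 to 0.028 for Kif1b, -0.20 to 0.050 for Kif21a, -0.046 to 0.016 for Kif3c, -0.049 to 0.038 for Kif5a, -0.041 to 0.077 for Kif5c, -0.14 to 0.53 for Kif9, -0.17 to 0.16 for Map2, -0.14 to 0.067 for Tubb4a, -0.18 to 0.073 for Tubb4b and -0.16 to 0.029 for Tubg2.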
